A study of Mus musculus with 12 samples.

Results

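The 40 genes described here encode proteins that a cell uses to copy its DNA in S phase. They were chosen by known function, not by a threshold on the measured levels, and cover origin recognition, licensing, the MCM helicase and its activators, the polymerases, the sliding clamp and its loader, Okazaki fragment joining, nucleotide supply, the E2F and cyclin E regulators and the chromatin factors that follow the fork. All 40 were among the 16411 genes of the count table, and all 40 were among the 13191 genes expressed well enough to be tested.

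Bulk tissue RNA was sequenced in the MMTV/neu-ndl-YD5 model, whose female mice carry an activated neu (Erbb2, HER2) transgene on an FVB background and received no treatment. The mouse mammary tumor virus (MMTV) promoter drives the transgene mainly in mammary epithelium. There were 6 tumors and 6 benign samples, the latter being mammary tissue with no visible tumor taken far from any tumor, so that the benign mice carried the same transgene. The tumors and benign samples came from different mice, and the age of each mouse was not given in the labels. Total counts ran from 5240853 to 8170687 per benign library and from 6111393 to 8588567 per tumor library. Erbb2 had 56.8 ± 11.2 counts per 1000000 of a scaled library (CPM) in benign samples and 7411 ± 5090 in tumors (mean ± SD, n = 6 in each group, as for every value below), which matched the labels in each library.

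Before S phase, the origin recognition complex, Cdc6 and Cdt1 load the ring of Mcm2 to Mcm7 onto DNA, a step called licensing. Cdc45 and the GINS complex then join the ring to make the active helicase, the primase of DNA polymerase alpha starts each strand, and polymerases delta and epsilon extend it while held by the PCNA clamp. Transcription of most of these genes is restrained by the RB protein until cyclin D and cyclin E kinases release E2F, so their RNA is commonly read as a sign of cycling cells.

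A promoter feature that was not itself a criterion in choosing the genes was more frequent in them than elsewhere, though most of their windows lacked it. The genes were chosen for work in S phase, where E2F controls most of them. More E2F strings could therefore be foreseen from the choice. RefSeq windows of 300 bases (250 before and 50 after a transcription start, GRCm38.p6) were held for 33 of the 40 genes, in 39 windows. One of 4 E2F strings (TTTCCCGC, TTTCGCGC, TTTGCCGC or TTTGGCGC, on either strand) was present in 14 of these 39 windows (35.9%), against 2.26% of all 32851 windows and 3.79% of the windows of the genes tested. The genes were Orc1, Cdc6, Cdt1, Mcm3, Mcm5, Mcm6, Mcm7, Gins3, Pola1, Pold1, Rfc3, Lig1, E2f2 and Uhrf1. A CCAAT box, in either direction, was found in 59.0% of the windows against 37.4% of all windows and 37.4% of those of the genes tested. The string TTTGAA, the core of the cell cycle homology region, was found in 15.4%, which lay between the share of all windows (17.9%) and that of the genes tested (12.1%). The 4 stretches shown lie before the start site and were picked because they carry the E2F string in an origin, helicase or polymerase gene, with the matching bases in capitals. Each is written 5′ to 3′ on the strand of its gene, and in Mcm5 and Mcm6 a forward and a reverse match overlap in one run of capitals.
Orc1, chr4:108579387-108579453, plus strand: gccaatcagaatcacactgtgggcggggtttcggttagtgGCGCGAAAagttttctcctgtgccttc
Mcm5, chr8:75109316-75109403, plus strand: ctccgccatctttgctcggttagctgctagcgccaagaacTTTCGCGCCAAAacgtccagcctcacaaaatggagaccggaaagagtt
Mcm6, chr1:128359768-128359855, minus strand: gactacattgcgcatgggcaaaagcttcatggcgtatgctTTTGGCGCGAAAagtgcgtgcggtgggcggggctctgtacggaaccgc
Pola1, chrX:93632246-93632333, minus strand: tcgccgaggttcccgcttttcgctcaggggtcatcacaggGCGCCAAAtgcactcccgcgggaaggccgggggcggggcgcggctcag
The capitals mark letters only, and binding was not measured. Windows were not held for Ccne2, Gins1, Gins2, Gins4, Mcm4, Pole and Rfc2.

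The first question was whether the tumors held more replication RNA than the benign tissue. As a group, the genes did not separate the tissues. The tumors were compared with the benign samples by edgeR's quasi-likelihood test, with Benjamini-Hochberg adjustment over all genes tested and a call at an adjusted p under 0.1. Only 1 of the 40 genes was called higher in tumors (Pola1), against 28.2% of all genes tested, and only 1 was called lower (Pola2), against 34.8%. The same 1 and 1 had an unadjusted p under 0.05. DESeq2 called 3 higher (Pola1, Pole and Rfc3) and 1 lower (Pola2), against 26% and 32.6% of all genes in its fit. The median log2 fold change, tumor over benign, was 0.02 over the 40 genes and -0.06 over all genes tested, with a range in the 40 from -0.82 (Ccne1) to 0.76 (Pole). For 12 of the genes the 95% interval of the log2 fold change lay within 1 of 0, and for the other 28 it reached beyond that, so that it does not exclude a 2-fold difference there. In bulk tissue, fewer cells of a type and less RNA per cell cannot be told apart.

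**Figure D1:**
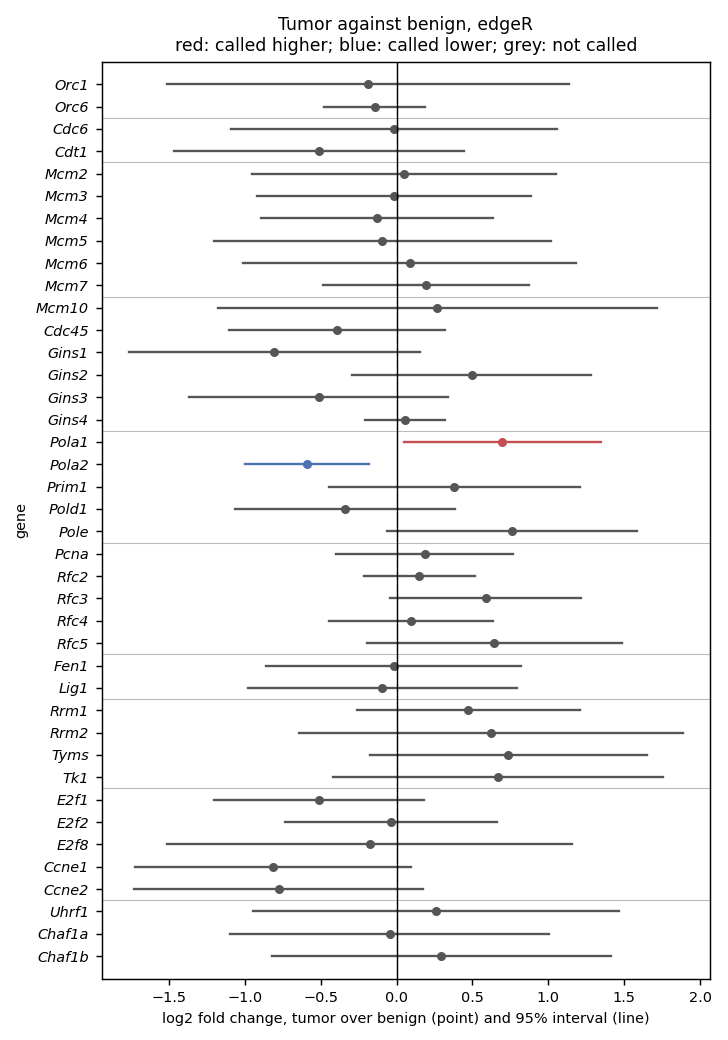
Log2 fold change of each of the 40 genes, tumor over benign, from edgeR (points) with its 95% interval (lines), ordered by role with grey lines between roles and n = 6 in each group. Pola1 (0.70) and Pola2 (-0.59) are the genes called, and most intervals span 0 widely.

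The tumors sat inside the span of the benign samples. All 6 tumors lay between the lowest and the highest benign sample for 32 of the 40 genes (80.0%), against 11.6% of all genes tested. For none of the genes were all tumors above every benign sample, against 14.7% of all genes tested, or all below, against 21.2%. The 8 genes with a tumor outside the benign range were Gins3, Gins4, Pola2, Pole, Rfc2, Rfc3, Rfc5 and Tyms. Summed over the 40 genes, counts made up 0.0348% to 0.234% of a benign library and 0.123% to 0.179% of a tumor library, or 2452 to 19085 and 9163 to 13254 counts.

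What differed between the groups was the spread. The SD of log2 CPM was larger among benign samples than among tumors for 39 of the 40 genes (97.5%), against 56.7% of all genes tested, Gins4 being the exception. The median SD over the 40 genes was 1.05 in benign samples and 0.25 in tumors, whereas over all genes tested it was 0.33 and 0.29. Mcm10, which holds the activated helicase at the fork, had the largest benign SD (2.14), and Gins4 the smallest (0.17). In tumors the SD ran from 0.060 for Pcna to 0.56 for Gins3.

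**Figure D2:**
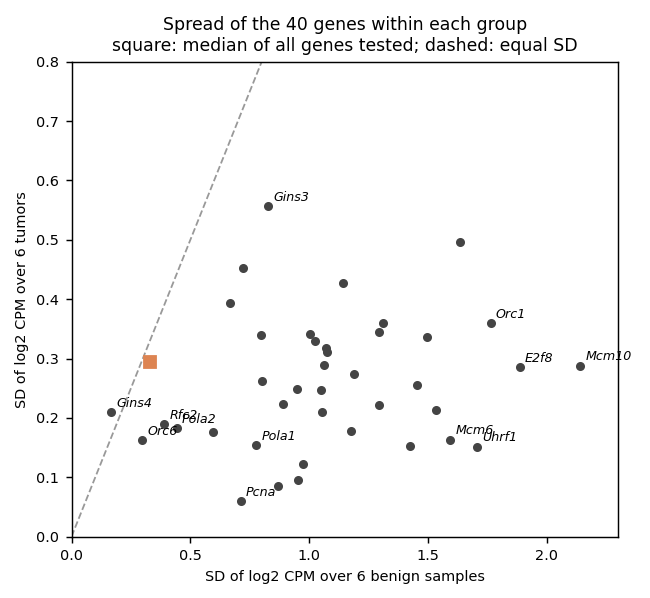
SD of log2 CPM of each of the 40 genes over the 6 benign samples (horizontal axis) and over the 6 tumors (vertical axis), on different scales, with the dashed line at equal SD. All points but Gins4 lie to the right of the line, and the square marks the medians over all genes tested (0.33 and 0.29).

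The benign samples kept nearly the same order from gene to gene. The mean log2 CPM of the 40 genes was 5.53 in benign 3, 5.07 in benign 5, 4.47 in benign 2, 4.21 in benign 1, 3.26 in benign 4 and 2.79 in benign 6. The tumors lay between 4.45 (tumor 3) and 4.84 (tumor 5), and the group means were 4.22 ± 1.05 for benign samples and 4.58 ± 0.14 for tumors. Once this order had been seen, its recurrence was counted. Benign 3 and 5 were both above the other 4 benign samples for 37 of the 40 genes (92.5%), against 12.2% of all genes tested. Benign 4 and 6 were both below the other 4 for 38 of the 40, against 21.6%. Tumor 5 was the highest tumor for 24 genes (60.0%), against 26.0%.

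**Figure D3:**
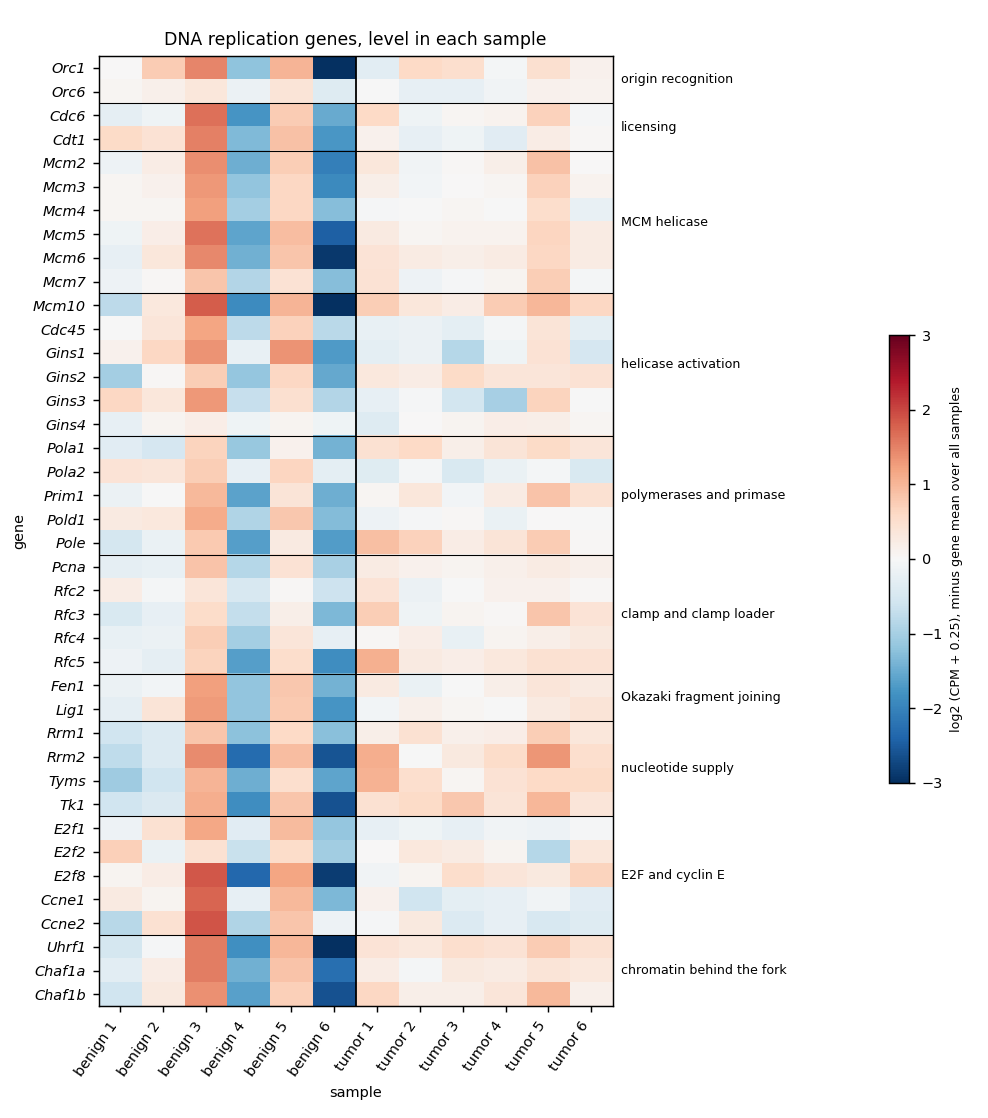
Level of the 40 genes (rows, by role) in the 12 samples (columns), as log2 of CPM + 0.25 minus the gene's mean over all samples, red above and blue below that mean. Benign 3 and 5 are red and benign 4 and 6 blue in almost every row, while the tumors stay near the mean.

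Which benign libraries were included set the number of calls. Without benign 3, 10 of the 40 genes were called higher and 1 lower by edgeR, against 27.6% and 33.8% of all genes tested in the same fit. Without benign 5 the counts were 5 and 1, against 27.1% and 34.3%. Without benign 4 they were 0 and 3, against 26.6% and 33.4%, and without benign 6 they were 0 and 4, against 27% and 33.9%. Leaving out benign 1 gave 1 and 2, leaving out tumor 2, 4 or 6 gave 2 and 1, and leaving out tumor 3 gave 3 and 1, while 29.5% to 31.5% of all genes were called higher and 31.5% to 32.4% lower. Without benign 3 and 5 together, 19 of the 40 were called higher and none lower, against 27.7% and 33.5% of all genes. Without benign 4 and 6 together none was called higher and 9 lower, against 28.3% and 31%.

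The benign samples also differed in the other tissues they held. Summed over 6 skeletal muscle markers, benign 3, 4 and 6 had 45700, 30400 and 77600 CPM, against 14.5 to 323 in the other benign samples and 0.843 to 120 in tumors, the highest tumor being tumor 5. The 2 brown fat markers summed to 2310 CPM in benign 4 and 533 in benign 6, against 17.6 to 96.0 in the other 4 and 0.778 to 19.1 in tumors. Benign 1 held lymphocyte RNA, with sums of 740 CPM over 7 T cell markers and 861 over 7 B cell markers, where the other benign samples had at most 20.8 and 7.99 and the tumors at most 16.7 and 3.01. Muscle RNA was thus high in a sample with high replication RNA (benign 3) and in both samples with low replication RNA (benign 4 and 6). Without the 3 libraries that held the most muscle RNA, that is with benign 1, 2 and 5 only, 4 of the 40 genes were called higher and 6 lower, against 26.7% and 28.7% of all genes tested. In the same samples 1 of the 40 was above and 3 were below without overlap, against 18.9% and 25.0% of all genes tested. The part of these tissues in the spread of the replication genes was not tested.

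Epithelial and stromal markers moved with the tissue as well. The 8 epithelial markers summed to between 893 and 2420 CPM per benign sample and between 2620 and 4360 CPM per tumor. Benign 6 had the lowest sum and benign 5 the highest, while benign 4 (1680) was above benign 3 (1470). In tumors, 6 of the 8 were called higher and 1, Krt19, lower. The 6 adipocyte markers summed to between 7160 and 16600 CPM per benign sample and between 8.39 and 87.6 CPM per tumor. Their sum was highest in the samples with low replication RNA, benign 4 (16600) and benign 6 (13300). It was 7160 and 9150 CPM in benign 3 and 5, and 7780 and 10200 CPM in benign 1 and 2. The sums of 3 endothelial markers (439 to 811 and 63.9 to 77.6 CPM), 3 fibroblast markers (1710 to 4200 and 182 to 394) and 5 macrophage markers (271 to 387 and 138 to 257) were also higher in every benign sample than in any tumor. None of the markers was at 0 in every sample of a group. Relative to Epcam, an adhesion protein of epithelial cells, the mean log2 CPM of the 40 genes was -3.69 ± 0.72 in benign samples and -5.65 ± 0.31 in tumors, whose ranges did not overlap. Relative to the mean of all 8 epithelial markers it was -2.69 ± 0.77 and -2.97 ± 0.41, whose ranges overlapped. Epcam had the largest log2 fold change of the 8 markers (2.24) and Krt19 the smallest (-4.74). Both relative levels therefore include the change of the markers themselves and do not give replication RNA per epithelial cell. The part of cell makeup in the group comparison and in the benign order was not tested.

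**Figure D4:**
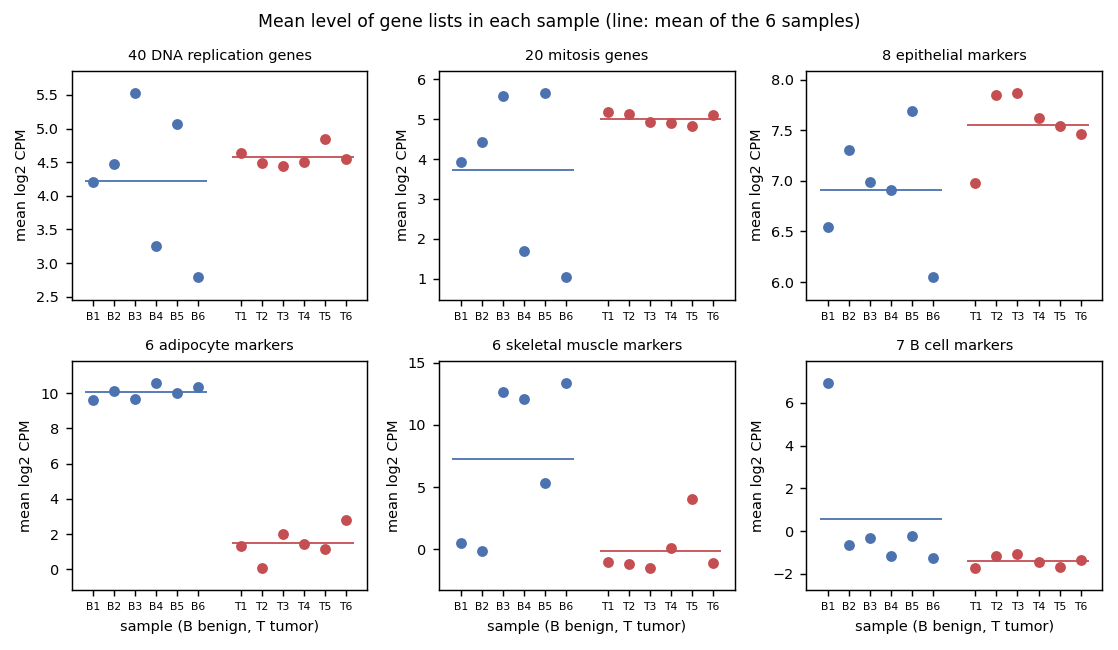
Mean log2 CPM of 6 gene lists in each benign sample (B1 to B6, blue) and tumor (T1 to T6, red), with horizontal lines at the group means and a separate vertical scale in each panel. The 40 replication genes and the 20 mitosis genes are spread widely over the benign samples, adipocyte markers separate the groups, and muscle RNA is high in B3, B4 and B6.

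The origin and licensing genes did not pass the test. Orc1, the ATPase of the origin recognition complex, had 0 counts in benign 6, which allows up to 0.499 CPM (3 counts, counting error only), and reached 6.99 CPM in benign 3 around a benign median of 3.29. In tumors it ran from 1.87 to 3.71 CPM, with a log2 fold change of -0.19 ± 0.61 (SE, adjusted p = 0.813, edgeR). Orc6, the smallest subunit of the complex, had 19.4 ± 3.88 CPM in benign samples and 17.6 ± 2.0 in tumors (log2 fold change -0.14 ± 0.15, adjusted p = 0.448, edgeR). Orc6 was therefore among the steadiest of the genes in benign tissue. It was still highest in benign 3 and 5 (23.2 and 23.8 CPM) and lowest in benign 4 and 6 (16.0 and 14.0 CPM). Orc1 followed the benign order with a wider spread. Cdc6, the loader of the MCM ring, ran from 2.49 to 28.8 CPM in benign samples and from 8.25 to 14.8 in tumors (-0.02 ± 0.50, adjusted p = 0.979, edgeR). Cdt1, its partner, ran from 5.33 to 53.4 CPM and from 14.6 to 21.6 CPM (-0.51 ± 0.44, adjusted p = 0.347, edgeR). All 6 tumors lay inside the benign range for each of these 4 genes.

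The MCM helicase gave the same picture in each of its 6 subunits. Mcm2 ran from 9.76 to 109 CPM around a median of 42.7 in benign samples, and from 38.4 to 77.0 CPM around 44.9 in tumors. Mcm3 had 11.7, 47.9 and 111 CPM as its lowest, median and highest benign values, and 42.2, 47.5 and 72.2 in tumors. Mcm4 had 18.3, 46.5 and 104 CPM in benign samples and 37.9, 44.3 and 63.8 in tumors. In each case the lowest benign sample was benign 6, the highest was benign 3, and the tumor and benign medians were close. Mcm5 had 8.17, 47.3 and 143 CPM in benign samples and 47.6, 52.0 and 71.4 in tumors. Mcm6 had 8.52, 68.5 and 175 CPM in benign samples and 73.3, 77.1 and 99.4 in tumors. Mcm7 had 33.2, 77.6 and 145 CPM in benign samples and 72.9, 82.0 and 134 in tumors. All tumors lay inside the benign range for the 6 subunits.

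In edgeR, which compares mean levels, the log2 fold changes of the subunits were smaller than their SE. They were 0.05 ± 0.46 for Mcm2, -0.02 ± 0.42 for Mcm3, -0.13 ± 0.35 for Mcm4, -0.10 ± 0.51 for Mcm5, 0.09 ± 0.51 for Mcm6 and 0.19 ± 0.31 for Mcm7 (SE), with adjusted p values in edgeR from 0.623 (Mcm7) to 0.977 (Mcm3). The mean log2 CPM of the 6 subunits was 5.52 ± 1.22 in benign samples and 5.90 ± 0.26 in tumors. For Mcm5 the median was higher in tumors (52.0 CPM, against 47.3), so its sign depended on the measure. The highest benign sample exceeded the lowest 20.5-fold for Mcm6, 17.6-fold for Mcm5, 11.1-fold for Mcm2, 9.51-fold for Mcm3, 5.70-fold for Mcm4 and 4.37-fold for Mcm7. Among tumors the same ratio was 1.36 (Mcm6) to 2.01 (Mcm2). Per kilobase of exon, the tumor levels were 31.4 ± 7.97 CPM/kb for Mcm7, 18.7 ± 2.23 for Mcm6, 16.8 ± 3.60 for Mcm3, 15.8 ± 2.54 for Mcm5, 14.8 ± 4.20 for Mcm2 and 13.0 ± 2.46 for Mcm4. On this length-corrected scale Mcm7 stood apart, and the neighbours among the other 5 subunits differed by less than their SD.

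The genes that turn the loaded ring into a moving helicase varied more among themselves. Mcm10 had 1 count in benign 6 (0.178 CPM) and 26.1 CPM in benign 3, against a tumor range of 8.55 to 14.8 CPM (log2 fold change 0.27 ± 0.67, adjusted p = 0.754, edgeR). Cdc45, the helicase cofactor, ran from 5.68 to 23.3 CPM in benign samples and from 8.12 to 13.3 in tumors (-0.39 ± 0.33, adjusted p = 0.330, edgeR). The 4 GINS genes, whose products form a single complex, had point estimates of both signs. Gins1 ran from 1.42 to 13.6 CPM and from 2.77 to 7.16 CPM (-0.80 ± 0.44, adjusted p = 0.139, edgeR). Gins2 ran from 4.62 to 23.3 CPM and from 16.0 to 20.6 CPM (0.49 ± 0.36, adjusted p = 0.267, edgeR). Gins3 ran from 2.66 to 12.9 CPM and from 2.43 to 8.18 CPM (-0.51 ± 0.39, adjusted p = 0.286, edgeR). Low counts lay behind several of these values. Gins4 was nearly level across all samples, with 30.2 ± 3.50 CPM in benign samples and 31.4 ± 4.21 in tumors (0.06 ± 0.12, adjusted p = 0.724, edgeR).

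The polymerase genes held both of the calls. Pola1, the catalytic subunit of DNA polymerase alpha, had 16.7, 14.9, 34.0, 9.44, 23.2 and 7.81 CPM in benign 1 to 6 and 29.1, 32.3, 24.1, 27.9, 31.8 and 27.5 CPM in tumors 1 to 6. All tumors were above every benign sample except benign 3. The means were 17.7 ± 9.72 and 28.8 ± 3.05 CPM, with a log2 fold change of 0.70 ± 0.30 (95% interval 0.05 to 1.34, adjusted p = 0.0627, edgeR). The call was lost without benign 4 (adjusted p = 0.118, edgeR) and without benign 6 (adjusted p = 0.101, edgeR). Pola2, the accessory subunit that links the polymerase to the helicase, went the other way. It had 35.0, 34.0, 43.8, 21.9, 40.8 and 21.3 CPM in benign 1 to 6 and 20.4, 25.0, 18.9, 22.7, 25.1 and 19.1 CPM in tumors 1 to 6. Tumors 1, 3 and 6 were below every benign sample, and tumors 2, 4 and 5 were above benign 4 and 6 and below the other 4. Its means were 32.8 ± 9.41 and 21.9 ± 2.81 CPM, with a log2 fold change of -0.59 ± 0.19 (95% interval -1.0 to -0.18, adjusted p = 0.0175, edgeR), and the call was kept in each of the 12 fits that left out 1 sample. Of the 15 fits that left out 2 benign samples, Pola2 was called in 10 and Pola1 in 8.

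The pair separated the groups although neither gene alone did. The log2 ratio of Pola1 to Pola2 within a library was -1.42 to -0.36 in benign samples (-1.0 ± 0.37) and 0.30 to 0.52 in tumors (0.40 ± 0.094). The ranges did not overlap, and a two-sided exact permutation test gave p = 0.00216, the smallest that the 924 regroupings allow. This pair was chosen after its values were seen, and 110 of the 780 possible ratios of 2 of the 40 genes (14.1%) did not overlap between the groups. With each sample left out in turn, the difference between the group means was 1.31 to 1.53. Per kilobase, Pola1 was at 3.31 ± 1.82 CPM/kb in benign samples and 5.39 ± 0.57 in tumors, Pola2 at 11.4 ± 3.28 and 7.62 ± 0.98, and the primase gene Prim1 at 12.9 ± 8.24 and 16.9 ± 4.10.

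**Figure D5:**
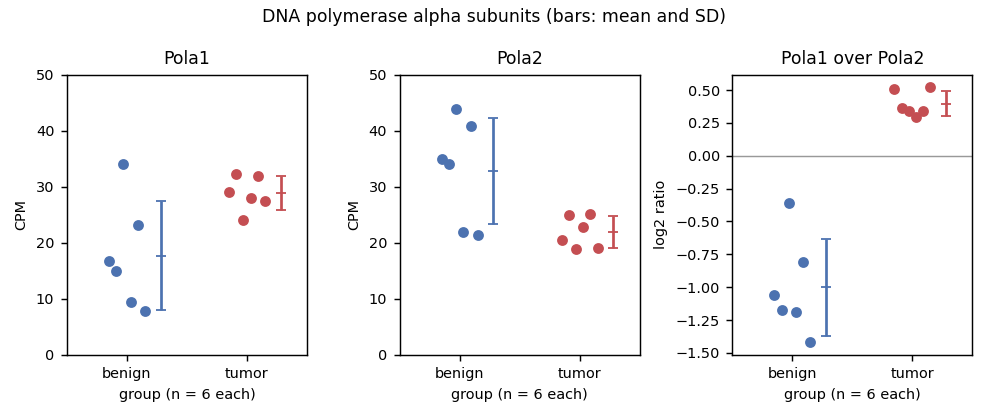
CPM of Pola1 and of Pola2 and their log2 ratio in each benign sample (blue) and tumor (red), with bars at the mean ± SD, n = 6 in each group. The groups overlap for each gene, and the ratio is below 0 in every benign sample and above 0 in every tumor.

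The other polymerase genes were not called. Prim1, which makes the RNA primer, ran from 6.77 to 41.6 CPM in benign samples and from 19.9 to 38.2 in tumors (log2 fold change 0.38 ± 0.38, adjusted p = 0.419, edgeR). Pold1, the catalytic subunit of polymerase delta, ran from 11.2 to 60.8 CPM and from 24.4 to 28.9 CPM (-0.34 ± 0.33, adjusted p = 0.408, edgeR). Pole, the catalytic subunit of polymerase epsilon, had 6.39, 16.5 and 36.7 CPM as its lowest, median and highest benign values and 21.5, 31.1 and 39.5 in tumors. Its log2 fold change of 0.76 ± 0.38 was the largest of the 40 and just missed the threshold (adjusted p = 0.106, edgeR), while DESeq2 called it (adjusted p = 0.0654). The catalytic subunits of the leading and lagging strand polymerases thus had point estimates of opposite sign, and the difference between them was not tested.

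The clamp and its loader were not called, and their 5 point estimates were positive. Pcna, the sliding clamp, had 65.0, 108 and 232 CPM as its lowest, median and highest benign values and only 136, 142 and 151 in tumors (log2 fold change 0.18 ± 0.27, adjusted p = 0.581, edgeR). It was the most even of the 40 genes among tumors. Rfc2 to Rfc5 are the small subunits of replication factor C, which opens the clamp. Rfc2 had 46.4 ± 12 and 51.5 ± 6.94 CPM (0.15 ± 0.17, adjusted p = 0.475, edgeR), and Rfc4 12.5 ± 5.21 and 13.4 ± 1.60 CPM (0.09 ± 0.25, adjusted p = 0.770, edgeR). Rfc3 ran from 8.17 to 31.1 CPM in benign samples and from 19.4 to 38.0 in tumors (0.59 ± 0.29, adjusted p = 0.104, edgeR, and 0.0664, DESeq2). Rfc5 ran from 6.75 to 40.4 CPM and from 29.1 to 52.8 CPM (0.64 ± 0.39, adjusted p = 0.176, edgeR). Between 1 and 2 tumors exceeded the highest benign sample for Rfc2, Rfc3 and Rfc5. For joining Okazaki fragments, the flap nuclease gene Fen1 had 27.3 ± 19.2 and 27.1 ± 3.79 CPM (-0.02 ± 0.39, adjusted p = 0.972, edgeR), and the ligase gene Lig1 54.6 ± 38.4 and 51.3 ± 6.44 CPM (-0.09 ± 0.41, adjusted p = 0.861, edgeR).

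The 4 genes that supply deoxynucleotides had positive point estimates, and none passed the test. Rrm1, the large subunit of ribonucleotide reductase, had 73.0 ± 46.0 CPM in benign samples and 101 ± 16.8 in tumors (log2 fold change 0.47 ± 0.34, adjusted p = 0.255, edgeR). Rrm2, its small subunit that is limiting in S phase, had 37.3 ± 36.6 and 57.7 ± 20.4 CPM (0.62 ± 0.58, adjusted p = 0.388, edgeR). Both followed the benign order, with benign 3 and 5 highest. Tyms, which makes thymidylate, had 21.5 ± 17.1 and 36.1 ± 8.17 CPM (0.74 ± 0.42, adjusted p = 0.154, edgeR). Tk1, the thymidine salvage kinase of cycling cells, had 21.0 ± 18.0 and 33.6 ± 6.28 CPM (0.67 ± 0.50, adjusted p = 0.276, edgeR). The median of the 4 log2 fold changes was 0.64, against 0.02 over the 40 genes.

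The regulators upstream had negative point estimates in edgeR, and none of the 5 passed the test. E2f1, an activator E2F, ran from 7.28 to 37.1 CPM in benign samples and only from 13.8 to 16.2 in tumors (log2 fold change -0.51 ± 0.32, adjusted p = 0.190, edgeR). E2f2, another activator, ran from 3.91 to 13.9 CPM and from 4.48 to 10.6 CPM (-0.04 ± 0.32, adjusted p = 0.930, edgeR). Its log2 fold change in DESeq2 was 0.005. E2f8, an atypical repressor E2F, ran from 1.07 to 34.2 CPM and from 8.56 to 14.9 CPM (-0.18 ± 0.62, adjusted p = 0.825, edgeR). The E2f8 median was 10.3 CPM in benign samples and 11.6 in tumors, so the sign depended on the measure for E2f2 and E2f8. All tumors lay inside the benign range for these genes and for both cyclins. Ccne1, a cyclin that drives S phase entry, had 7.97 ± 5.89 and 4.55 ± 0.84 CPM (-0.82 ± 0.42, adjusted p = 0.116, edgeR), and its paralog Ccne2 had 9.69 ± 8.02 and 5.69 ± 1.29 CPM (-0.78 ± 0.44, adjusted p = 0.150, edgeR). The chromatin genes stood between these groups. Uhrf1, which brings DNA methyltransferase to new DNA, had 54.4 ± 50.9 and 65.4 ± 7.27 CPM (0.26 ± 0.56, adjusted p = 0.714, edgeR). Of the chromatin assembly factor subunits, Chaf1a had 28.2 ± 23.9 and 27.5 ± 2.75 CPM (-0.05 ± 0.49, adjusted p = 0.944, edgeR), and Chaf1b 18.1 ± 15.3 and 22.4 ± 5.74 CPM (0.30 ± 0.52, adjusted p = 0.649, edgeR).

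Taken relative to the others, few of the genes separated the tissues. When each gene's log2 CPM was taken relative to the mean of the 40 in the same library, a scale chosen after the data were seen, 1 gene was higher in every tumor than in any benign sample (Tk1), against 3.55% of all genes tested. On this scale Tk1 was -0.92 to 0.24 in benign samples and 0.28 to 0.83 in tumors. There were 3 genes lower in every tumor (Cdc45, E2f1 and Ccne1), against 12.8%. E2f1 was -0.31 to 0.47 in benign samples and -0.93 to -0.51 in tumors, Ccne1 -1.88 to -1.02 and -2.60 to -2.0, and Cdc45 -1.0 to -0.21 and -1.49 to -1.08. These genes made up 2.5% and 7.5% of the 40. The shares of all genes on this scale are not a like measure for the 40. Subtracting the mean of the 40 adds its benign spread (SD 1.05) to genes that do not follow it. On plain CPM the shares of all genes were 14.7% and 21.2%. Without benign 6, 5 genes lay above instead of 1, without benign 1 or tumor 3, 5 or 6 there were 2, and without benign 3, 5 genes lay below instead of 3. Shares of all genes were not counted with these samples left out, so these changes cannot be judged.

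Other genes of the pathway were also mostly not called. Of 115 further genes for replication, nucleotides, RB and E2F control, chromatin, checkpoint and mitosis, 16 were called higher and 7 lower, with a median log2 fold change of 0.12. Both counts were below the shares of all genes tested, 28.2% higher and 34.8% lower. The same shares stand beside the counts of each list that follows. Among 38 other genes of the replication machinery, 4 were higher and 3 lower. The largest estimates were Mtbp, a partner of the origin firing factor Ticrr (0.98 ± 0.43, adjusted p = 0.0674, edgeR), and Pole2 (0.84 ± 0.41, adjusted p = 0.09997, edgeR). Both were called, Pole2 only just. The smallest were Gmnn, the inhibitor of Cdt1 (-0.86 ± 0.31, adjusted p = 0.0293, edgeR), and Recql4 (-0.63 ± 0.46, adjusted p = 0.259, edgeR), of which only Gmnn was called. Of the remaining ORC genes, Orc2 (-0.35 ± 0.13, adjusted p = 0.0364, edgeR) and Orc3 (-0.32 ± 0.13, adjusted p = 0.0443, edgeR) fell, while Orc4 (0.13 ± 0.12) and Orc5 (-0.17 ± 0.17) were not called. Rfc1, the large clamp loader subunit, was above every benign sample in all 6 tumors (0.39 ± 0.11, adjusted p = 0.00649, edgeR).

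Among 10 other nucleotide enzymes, 2 were higher and none lower, against 28.2% and 34.8% of all genes tested. Dck, the deoxycytidine salvage kinase, rose from 18.3 ± 7.79 to 84.4 ± 33.1 CPM (2.20 ± 0.33, adjusted p = 8.58e-05, edgeR), and Dctd, which deaminates dCMP, from 12.9 ± 7.99 to 28.6 ± 7.64 CPM (1.14 ± 0.38, adjusted p = 0.0219, edgeR). Both act beside Tk1 and Tyms in pyrimidine supply. The smallest estimates were Samhd1 (-0.17 ± 0.27) and Dut (-0.14 ± 0.26), neither of them called. Of 20 RB and E2F genes, 5 were higher, near the share of all genes tested (28.2%), and 2 lower, against 34.8%. Ccnd1, the cyclin that starts RB phosphorylation, rose from 233 ± 131 to 459 ± 113 CPM (0.98 ± 0.38, adjusted p = 0.0409, edgeR), and Tfdp2, a dimer partner of E2F, from 38.5 ± 5.26 to 59.7 ± 9.21 CPM (0.63 ± 0.13, adjusted p = 0.000978, edgeR). The smallest estimates were E2f6, a repressor E2F (-0.91 ± 0.27, adjusted p = 0.0125, edgeR), which fell, and Cdkn1a (-0.75 ± 0.46, adjusted p = 0.180, edgeR), which was not called. E2f6 was at 88.6, 64.0 and 94.6 CPM in benign 3, 4 and 6, which held the muscle RNA, at 28.2, 35.5 and 41.5 CPM in benign 1, 2 and 5, and at 26.7 to 34.3 CPM in tumors, and the part of muscle in its fall was not tested. E2f4, a further repressor, also fell (-0.67 ± 0.13, adjusted p = 0.000742, edgeR).

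Of 12 other chromatin genes, 2 were higher and 1 lower, against 28.2% and 34.8% of all genes tested. Dnmt1, the maintenance DNA methyltransferase (0.86 ± 0.31, adjusted p = 0.0286, edgeR), and Tonsl (0.76 ± 0.34, adjusted p = 0.0759, edgeR) rose. Slbp, which binds histone mRNA, fell (-0.59 ± 0.17, adjusted p = 0.00813, edgeR), and Nasp was not called (-0.47 ± 0.30). Of 15 checkpoint and fork repair genes, Hus1 and Wee1 were higher and Rad9a lower (-0.73 ± 0.17, adjusted p = 0.00267, edgeR). Fancd2 (0.87 ± 0.56) and Fanci (0.73 ± 0.51) had the largest estimates and Rad17 (-0.20 ± 0.12) the second smallest, and none of these was called. The 20 mitosis genes had a median log2 fold change of 0.42. All tumors lay inside the benign range for 18 of them, against 11.6% of all genes tested. Cenpf, a kinetochore protein, was the only one called by edgeR (1.27 ± 0.62, adjusted p = 0.0957), followed by Mki67, the Ki-67 antigen, with 96.9 ± 86.4 and 232 ± 50.5 CPM (1.26 ± 0.66, adjusted p = 0.122, edgeR). DESeq2 called Mki67 (adjusted p = 0.0641), and 4 tumors lay above its highest benign sample. Ube2c (0.01 ± 0.58) and Aurkb (0.03 ± 0.57) had the smallest estimates. The mitosis genes shared the benign pattern, with means of 5.58 and 5.66 log2 CPM in benign 3 and 5, 1.70 and 1.03 in benign 4 and 6, and 4.83 to 5.18 in tumors.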

How the data were processed

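RNA-seq was done on 6 tumors and 6 benign mammary samples. The authors deposited 1 table of estimated counts per gene, made by trimming and quantifying the reads with the tools that the submitters' processing notes name: Trim Galore, Salmon and DESeq2, on mm10, with versions not given in the sources used here. Library preparation kept strand. The deposited values were all whole numbers. All 12 columns were matched to a sample by title, and 0 columns had no sample.

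Genes were kept by filterByExpr (minimum count 10, minimum total 15) and tested with edgeR 4.0.16 (TMM, quasi-likelihood) in R 4.3.3, with Benjamini-Hochberg adjustment over 13191 genes and calls at 0.1. The SE was the log2 fold change over the root of the F statistic, and intervals are 95%. CPM used TMM library sizes, and log2 CPM added 2 counts scaled to depth. DESeq2 1.42.0, other scalings, filters, thresholds and left-out samples were alternatives. The fold change compares mean levels, which high samples weigh on more than in a mean of log2 values. Per-kilobase values used GENCODE M21 exon lengths.

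The 40 genes, the other lists (other replication machinery, other nucleotide enzymes, RB and E2F control, chromatin, checkpoint, mitosis and 9 cell type marker lists) and the tests were chosen with earlier results of these data known. Every one of the 40 was named with its values. Of each other pathway list, the 2 genes with the largest and the 2 with the smallest log2 fold change were named, and the ORC genes, while further names were added after values were seen. The replicate numbers do not pair mice across groups. No 2 libraries of a group agreed within sampling noise (smallest chi-square per degree of freedom 12.5). Samples are biological replicates in the study's methods. In data simulated for this comparison (12993 genes, 200 changed), edgeR recovered 54.8% of 2-fold and 90.6% of 4-fold changes, with 9.43% false among its calls. DESeq2 recovered 67.3% and 96.9%, with 30.3% false among its calls. The changed genes were drawn at random from the better expressed genes of the whole table. The 40 genes had a larger median benign SD (1.05, against 0.33 over all genes tested), so these rates may not hold for them.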

Additional observations from a re-analysis of the deposited data

Results flagged for a closer look

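In 80 groups of 6 values (40 genes in each tissue), 8 had a lowest or highest sample standing apart by Dixon's gap test. The test flags a gap over range above its 95% critical value, where chance marks about 1 in 20 of independent groups. The 40 genes varied together, so the 80 groups were not independent. Tumor 5 stood above the other tumors for 4 subunits of the MCM helicase and for Cdc45, which binds it. Its Mcm2 was at 77.0 CPM with the next tumor at 52.5, its Mcm3 at 72.2 with the next at 50.9, its Mcm4 at 63.8 with the next at 46.0, its Mcm5 at 71.4 with the next at 55.1, and its Cdc45 at 13.3 with the next at 9.72. The same tumor was lowest for E2f2, at 4.48 CPM with the next at 8.41. It also held the most skeletal muscle marker RNA among tumors (120 CPM), whose part in these values was not tested. Tumor 1 was highest for Rfc5, at 52.8 CPM with the next at 34.4, and lowest for Gins4, at 23.5 with the next at 30.8. The 8 values fell in tumors only, and none was in a benign sample.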

How the results depend on the processing

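The 40 genes gave 1 call higher and 1 lower under upper-quartile scaling too, 3 and 1 under DESeq2, under DESeq2 size factors in edgeR, keeping any gene with a count, and keeping those with 10 counts or more in every sample (36 of the 40 genes), 2 and 1 under total counts, and 0 and 1 at an adjusted p under 0.05, where 8 of the 115 other genes were higher instead of 16. In these fits 24.8% to 32.8% of all genes tested were called higher and 28.9% to 34.6% lower. With benign 1, 2 and 5 only, 4 were higher and 6 lower, against 26.7% and 28.7% of all genes tested. In the same samples 1 and 3 did not overlap, against 18.9% and 25.0%. Over single samples left out, calls higher ran from 0 to 10, calls lower from 1 to 4, genes not overlapping from 0 to 1 (higher) and 0 to 0 (lower), and the median log2 fold change from -0.18 to 0.39. Over pairs of benign samples left out, the ranges were 0 to 19, 0 to 9, 0 to 11, 0 to 3 and -0.32 to 0.73. Fewer samples make it easier for any gene not to overlap. Shares of all genes not overlapping were not counted with single samples or pairs left out, so these counts not overlapping cannot be judged. Of all genes tested, 26.6% to 31.5% were called higher and 31.5% to 34.3% lower over single samples. Over pairs these shares were 24.9% to 31.4% and 30.6% to 33.5%. For the 115 other genes, calls higher ran from 9 to 26 and from 7 to 61, and calls lower from 5 to 10 and from 4 to 12. For the 40 genes relative to their mean, those not overlapping ran from 1 to 5 (higher) and from 3 to 5 (lower) over single samples. Shares of all genes were not counted beside these either. Over the same pairs, 3 genes turned from below 0 to called higher without benign 3 and 5: Cdc6 ran from -0.41 to 1.02, Fen1 from -0.36 to 0.76 and Chaf1a from -0.45 to 0.89, the highest value of each being that one. The cause was not tested. Total counts moved the median of all genes from -0.06 to 0.03.

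With the replicate number as a block, 7 genes were called higher and 1 lower, against 26.3% and 32.1% of all genes tested. The median was 0.34 and 7710 genes were called in all. The numbers gave no pairing: deviations of same-numbered samples correlated at -0.124 to 0.103, and 0 of the 6 numbers were matched best by their own. The benign spread (SD 1.05 on the log2 scale) and 6 samples a group limit what these data can show.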
